A study of Mus musculus with 6 samples.

Results

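The miR-29 family was examined in a profile of small RNAs from the right dentate gyrus of 6 male C57/Black6J mice, aged 6 to 8 weeks, 3 given intraperitoneal saline and 3 taken through status epilepticus induced by kainic acid (KA-SE). The members were the assays on the card named mmu-miR-29a, mmu-miR-29b and mmu-miR-29c, 3 of 381 assays, and the card held no other assay of this family. Kainic acid excites neurons through glutamate receptors and causes seizures. KA-SE mice received 24 mg per kg at first and then 10 mg per kg at intervals of 30 min, were kept in the study after seizures of class IV-V lasting over 5 min, and, like the saline mice, were sampled 72 h after the injections. Each library was 1 TaqMan card run on the RNA of 1 mouse, so replicates were separate animals. Each assay was read as a Ct, or threshold cycle, which is reached earlier the more of its RNA is present.

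MicroRNAs are short RNAs that guide Argonaute proteins to messenger RNAs, mostly by pairing of the seed near their 5′ end, and lower the output of those messages. In mouse neurons miR-29 is known to rise as the cells mature and to repress BH3-only genes, such as Bim, Puma, Bmf and Hrk, whose proteins set off apoptosis through the mitochondria. The family is also known in rodent brain cultures as one that astrocytes express, and elsewhere for its repression of collagen messages. The study that produced these samples was aimed at the control of apoptosis in the dentate gyrus after KA-SE. Target messages and proteins are not part of this card, and RNA of a dissected tissue does not show which cells it came from.

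The 3 mature sequences are shown because they set what each assay can tell apart. They are RefSeq sequences (GRCm38.p6), written 5′ to 3′ with the seed, bases 2 to 8, in capitals, and all 3 members were matched.
miR-29a: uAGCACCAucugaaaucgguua
miR-29b: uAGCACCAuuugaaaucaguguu
miR-29c: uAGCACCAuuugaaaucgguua
The seed AGCACCA was the same in all 3, and among 1679 mature mouse microRNA names in RefSeq only these 3 carried it. With positions counted from 1 at the 5′ end, miR-29a and miR-29c differed at 1 base, C10U. Over the 22 bases that the sequences share in length, miR-29a and miR-29b differed at 4 positions, C10U, G18A, U21G and A22U. miR-29c and miR-29b differed at 3 of those, G18A, U21G and A22U. How far the assays cross-read between members was not tested.

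The family is encoded in pairs of hairpins, shown here with the mature 3′ arm in capitals because miR-29b arises from 2 of them and its assay cannot tell them apart.
Mir29a, chr6:31062660-31062747, minus strand: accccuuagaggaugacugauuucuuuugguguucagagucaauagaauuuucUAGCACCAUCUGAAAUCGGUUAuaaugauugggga
Mir29b-1, chr6:31063023-31063093, minus strand: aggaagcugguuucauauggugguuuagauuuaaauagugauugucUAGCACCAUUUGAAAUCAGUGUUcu
Mir29b-2, chr1:195037040-195037120, plus strand: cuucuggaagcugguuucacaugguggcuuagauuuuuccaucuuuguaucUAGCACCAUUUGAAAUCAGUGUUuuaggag
Mir29c, chr1:195037547-195037634, plus strand: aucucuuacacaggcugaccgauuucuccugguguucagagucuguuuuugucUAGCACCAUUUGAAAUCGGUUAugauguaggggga
In GRCm38.p6, Mir29a and Mir29b-1 lie 275 bases apart on the same strand of chromosome 6, outside any other RefSeq gene. Mir29b-2 and Mir29c lie 426 bases apart on chromosome 1, within the bounds of the long noncoding RNA gene A330023F24Rik. The nearest protein-coding gene is Klf14 for the pair on chromosome 6 and Cd46 for the pair on chromosome 1. miR-29a therefore comes from chromosome 6 alone, miR-29c from chromosome 1 alone, and miR-29b from both.

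One saline library stood apart, which touches every value below. In saline replicate 2 the 281 tested microRNAs, each below Ct 35 throughout, came up later than the mean of saline replicates 1 and 3 by a median of 2.23 cycles (quartiles 1.53 and 3.19), while the small nuclear RNA U6 was later by 0.73 cycles and the other 4 endogenous control RNAs by 0.603 to 0.861 cycles. The dissected tissue gave neuronal markers in all libraries, with a mean Ct of 15.1 for miR-9 and 19.9 for miR-124. Markers of other cell types were detected as well, such as miR-126-3p of endothelium (mean Ct 17.1), miR-204 of choroid plexus (17.2) and miR-150 of leukocytes (17.8). Each of these was the earliest of the markers listed for its cell type. The next earliest came up later, at a mean Ct of 20.2 for miR-126-5p of endothelium and 21.1 for miR-34b-3p of choroid plexus and ependyma. The next leukocyte marker, miR-223, was later still.

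All 3 members were detected in every library, and miR-29a was among the earliest signals of the card. Saline replicates 1, 2 and 3 gave miR-29a at a raw Ct of 15.9, 18.6 and 15.8, and KA-SE replicates 1, 2 and 3 at 15.6, 16.4 and 16.1. Ranked by Ct among the 281 microRNAs, it took places 8, 17 and 4 among the saline libraries and 6, 9 and 8 after KA-SE. Its groups overlapped, and saline replicate 2 was the latest library.
Saline replicates gave miR-29c at a raw Ct of 19.4, 23.0 and 19.5, and KA-SE replicates at 19.0, 19.7 and 19.7. Its place was 46, 75 and 44 for saline mice, then 47, 47 and 50 for KA-SE mice. As for miR-29a, 5 libraries lay close together, within 0.73 cycles, and saline replicate 2 lay apart.
Saline replicates gave miR-29b at a raw Ct of 21.0, 27.4 and 23.0, and KA-SE replicates at 21.3, 22.1 and 21.7. Its place was 78, 187 and 122 for saline mice, then 97, 98 and 88 for KA-SE mice. The saline mice thus bracketed the KA-SE mice for miR-29b, with replicate 1 earlier and replicates 2 and 3 later than all KA-SE replicates.

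**Figure D1:**
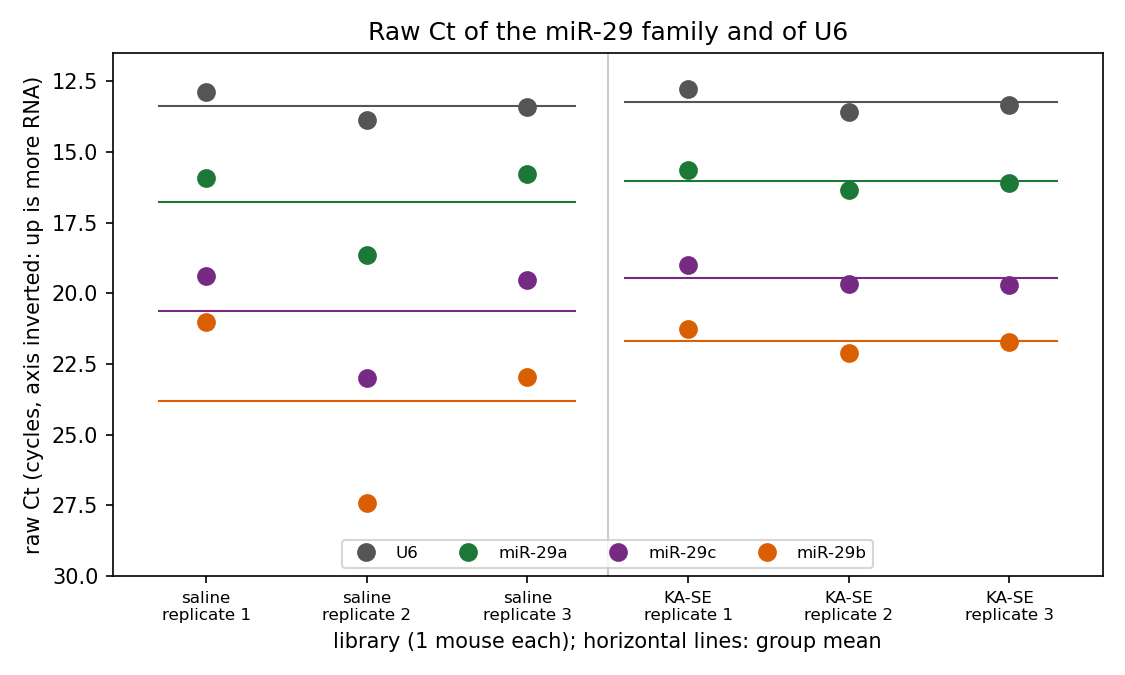
Raw Ct (vertical axis, inverted so that up means more RNA) of U6 and the miR-29 members in each of the 6 libraries, with horizontal lines at group means. The 3 KA-SE libraries lie within 0.861 cycles for each member, while saline replicate 2 is the latest library for all 3 and by most for miR-29b, at 27.4.

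Within each library the order of the readouts was miR-29a, then miR-29c, then miR-29b. miR-29c came up 3.64 ± 0.39 cycles (SD, n = 6 libraries) after miR-29a, and miR-29b came up 2.70 ± 1.0 cycles (SD, n = 6) after miR-29c. Both intervals were positive in 6 of 6 libraries, as was that of miR-29b after miR-29a (two-sided exact sign-flip permutation test, p = 0.03125 for each of the 3 pairs, also after Benjamini-Hochberg adjustment over the 3, and the smallest p that 6 libraries allow). Ct values also depend on the assay, so this is an order of readouts and not strictly one of abundance.

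The lateness of saline replicate 2 was not equal over the family. Against the mean of saline replicates 1 and 3, this library was later by 2.78 cycles for miR-29a, 3.53 cycles for miR-29c and 5.41 cycles for miR-29b. Each exceeded the median of 2.23 cycles, and in order from the latest they stood at places 104, 53 and 2 of 281. Saline replicates 1 and 3 also differed in miR-29b, which was 1.95 cycles later in replicate 3 (place 16 of 281 from the latest), whereas miR-29a differed by -0.15 and miR-29c by 0.16 cycles. The spread of miR-29b among saline mice therefore did not rest on replicate 2 alone.

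**Figure D2:**
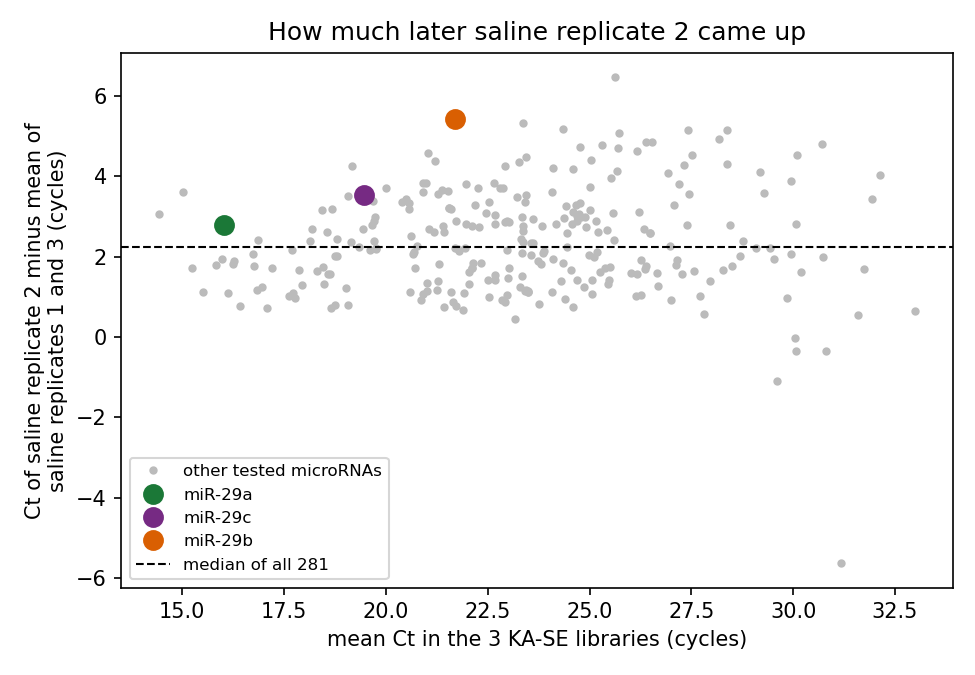
Cycles by which saline replicate 2 came up after the mean of saline replicates 1 and 3 (vertical axis) against the mean Ct in KA-SE mice (horizontal axis), 1 point for each of the 281 microRNAs tested. The dashed line marks the median of 2.23 cycles, and miR-29b at 5.41 is second from the top.

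A difference between 2 Ct values of the same library needs no reference RNA and shows whether members kept their proportions. miR-29b came up 5.08, 8.77 and 7.19 cycles after miR-29a in saline mice, and 5.61, 5.76 and 5.62 cycles after it in KA-SE mice. KA-SE values were nearly constant and fell inside the saline range. miR-29b came up 1.64, 4.41 and 3.43 cycles after miR-29c in saline and 2.27, 2.44 and 1.99 cycles after it in KA-SE mice, again inside the saline range. miR-29c came up 3.44, 4.36 and 3.76 cycles after miR-29a in saline and 3.34, 3.33 and 3.63 cycles after it in KA-SE mice, where the groups overlapped through KA-SE replicate 3.
The means were 7.01 ± 1.8 and 5.67 ± 0.085 cycles for miR-29b against miR-29a, 3.16 ± 1.4 and 2.23 ± 0.22 cycles for miR-29b against miR-29c, and 3.85 ± 0.47 and 3.43 ± 0.17 cycles for miR-29c against miR-29a (saline and KA-SE, SD, n = 3 each). The group differences, KA-SE minus saline, were -1.35, -0.93 and -0.42 cycles. Two-sided exact permutation tests gave p = 0.4, 0.4 and 0.2 (adjusted p = 0.4 over the 3 pairs). The smallest unadjusted p that 3 mice against 3 allow is 0.1, so these tests cannot decide whether the groups differed. Without saline replicate 2 the group differences were -0.47, -0.30 and -0.17 cycles.

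**Figure D3:**
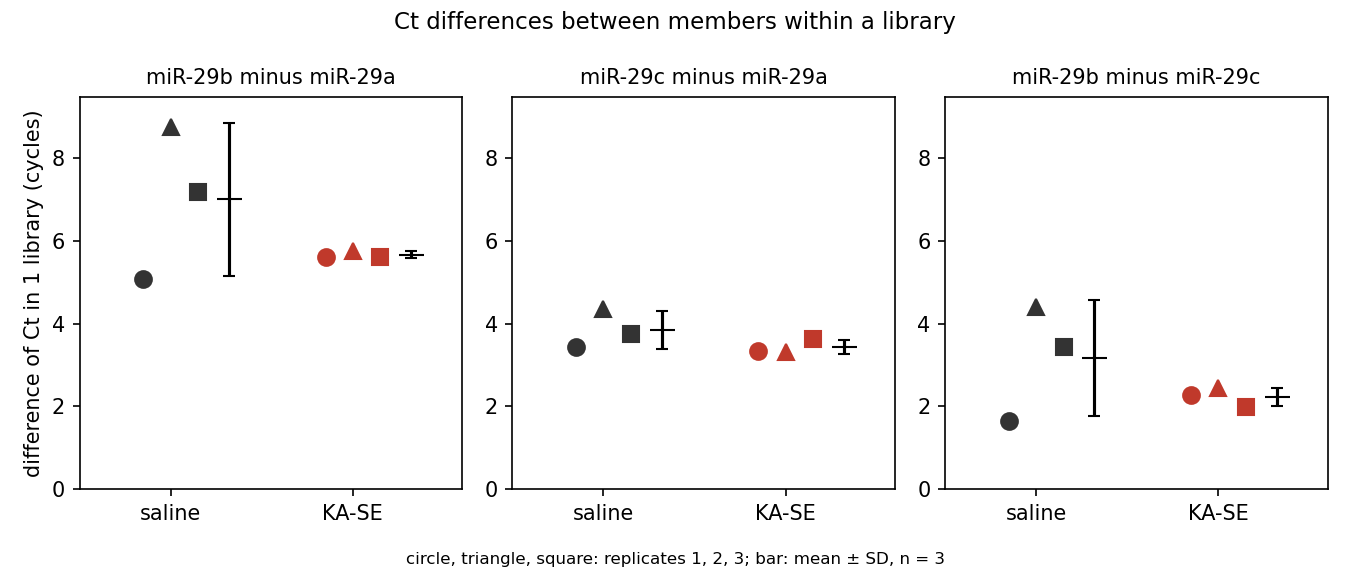
Difference of Ct between members within 1 library (cycles) in saline and KA-SE mice, with circles, triangles and squares for replicates 1, 2 and 3 and bars for mean ± SD (n = 3). The KA-SE values of miR-29b minus miR-29a lie between 5.61 and 5.76, inside the saline range of 5.08 to 8.77.

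The main comparison set KA-SE against saline mice on the level over U6, the Ct of U6 minus that of the microRNA on the same card, which corresponds to log2 units when PCR doubles the product at every cycle. The raw Ct of U6 itself was 13.4 ± 0.49 (SD, n = 3) for saline mice and 13.2 ± 0.41 (SD, n = 3) for KA-SE mice. In tissue RNA, fewer cells of a type and less RNA per cell cannot be told apart. miR-29a came up 3.04, 4.76 and 2.38 cycles after U6 in saline mice, and 2.86, 2.78 and 2.75 cycles after it in KA-SE mice. The groups overlapped, since saline replicate 3 had the highest level of all 6. miR-29c came up 6.48, 9.11 and 6.14 cycles after U6 in saline and 6.20, 6.11 and 6.38 cycles after it in KA-SE mice. Saline replicate 3 lay among the KA-SE mice, so the groups overlapped here as well. miR-29b came up 8.13, 13.5 and 9.57 cycles after U6 in saline and 8.47, 8.54 and 8.37 cycles after it in KA-SE mice, with saline replicate 1 above all KA-SE mice.
No member passed the test. The log2 fold changes over U6, KA-SE minus saline, were 0.60 (standard error 0.65, 95% interval -0.92 to 2.12) for miR-29a, 1.01 (standard error 0.80, -0.85 to 2.88) for miR-29c and 1.94 (standard error 1.25, -0.998 to 4.89) for miR-29b. In limma with Benjamini-Hochberg adjustment over the 281 microRNAs the adjusted p was 0.639, 0.572 and 0.556. Calls required a fold change of 1.5 or more at an adjusted p below 0.05. By this rule 0 of the 3 members were called, beside 0% of all microRNAs tested, of which 8 had an unadjusted p under 0.05 in limma and 6 in the methods' t-test, none of them a miR-29. The median log2 fold change of all 281 was 0.62, so miR-29a lay at the median (place 147 from the highest), miR-29c at place 81 and miR-29b at place 10.
The groups overlapped for all 3 members, while 19.2% of the microRNAs tested were higher in every KA-SE than in every saline mouse over U6 and 1.42% were lower. Relative to the global mean, the mean Ct of the 281 microRNAs in the same library, the members' groups overlapped as well, while 12.8% of microRNAs were higher and 12.1% lower in every KA-SE mouse.
Without saline replicate 2 the log2 fold changes over U6 were -0.09 (95% interval -0.72 to 0.55) for miR-29a, 0.08 (-0.46 to 0.62) for miR-29c and 0.38 (-0.68 to 1.45) for miR-29b (adjusted p from limma 0.911, 0.905 and 0.710), and the median of all 281 was 0.12. Relative to the global mean they were -0.06, 0.36 and 1.29 with all 6 libraries and -0.19, -0.02 and 0.28 without saline replicate 2. The direction of miR-29a therefore turned with the reference and with this library, and that of miR-29c turned when both were changed.

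**Figure D4:**
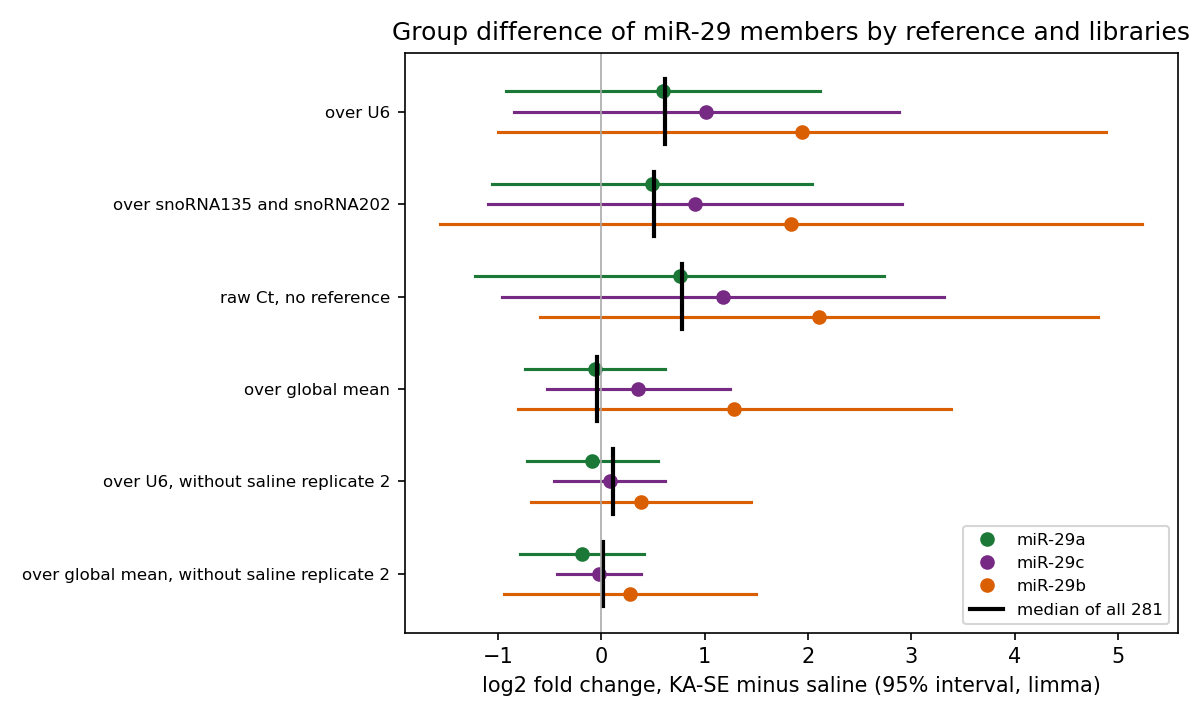
Log2 fold change of each member, KA-SE minus saline (horizontal axis), with 95% intervals from limma, under 4 references and without saline replicate 2, and black bars at the median of all 281 microRNAs. Every interval includes 0, and without saline replicate 2 the members lie between -0.19 and 0.38.

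All 3 members spread more widely among saline than among KA-SE mice. Over U6 the SD in saline was 1.23 for miR-29a, 1.63 for miR-29c and 2.80 for miR-29b, against a median of 0.98 over the 281 microRNAs, and miR-29b had the fifth largest. In KA-SE mice the SD was 0.056, 0.138 and 0.086, against a median of 0.198. Relative to the global mean, which removes a shift shared by all microRNAs of a library, the saline SD was 0.36 for miR-29a, 0.67 for miR-29c and 1.91 for miR-29b (median of all 0.58), and in KA-SE mice 0.18, 0.050 and 0.21 (median of all 0.18). miR-29a was thus less variable than the median microRNA among saline mice once the library shift was removed, and miR-29b was ninth from the most variable.
Across the 6 libraries, the levels of miR-29a and miR-29b over the global mean had a Pearson correlation of 0.16, those of miR-29a and miR-29c 0.56 and those of miR-29c and miR-29b 0.85. Without saline replicate 2 these were -0.72, 0.81 and -0.91 over 5 libraries, so the relations of miR-29b with miR-29a and with miR-29c changed sign when that 1 library was left out. All levels share the global mean of their library, and no test was made.

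The microRNAs whose pattern was most like the mean of the 3 members were late in saline replicate 2. That mean was not scaled, so miR-29b, with a saline SD of 1.91 over the global mean, weighed most in it. The SD was 0.36 for miR-29a and 0.67 for miR-29c. By Pearson correlation of levels over the global mean in 6 libraries they were miR-551b (0.997), the rat assay for miR-190b (0.996), miR-101a (0.991), miR-362-3p (0.987) and miR-190 (0.986). In saline replicate 2 they came up 3.82 to 5.17 cycles later than in saline replicates 1 and 3. Over the other 5 libraries the correlation was 0.94 for miR-551b, 0.93 for miR-190b, 0.77 for miR-101a, 0.58 for miR-362-3p and 0.62 for miR-190. In those libraries miR-29b correlated at -0.72 with miR-29a and at -0.91 with miR-29c. Likeness to the mean there is therefore not likeness to each member.

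Other microRNAs of apoptosis were set beside the family. All 17 microRNAs listed as repressors of BH3-only genes, most of them from the cluster of miR-17 and its paralogs, were tested. None passed limma's test in either direction. Over U6, 16 of the 17 log2 fold changes were positive and the median was 0.73, where all 281 microRNAs had a median of 0.62 and 245 were positive. The earliest of them were miR-9, of neurons and neural progenitors, with 1.08 (standard error 0.69) and miR-24, of the miR-23/27/24 clusters, with 0.51 (standard error 0.47) (adjusted p = 0.556 and 0.612 from limma). Of 9 microRNAs listed as promoting apoptosis, of the miR-15/16 and miR-34 families, 0 passed and 9 were positive, with a median of 0.90. Among them was miR-34b-3p, which was also listed as a marker of choroid plexus and ependyma. The earliest of the 9 were miR-16, which represses Bcl2, with 0.46 (standard error 0.53) and its relative miR-195 with 0.79 (standard error 0.54). Without saline replicate 2 the medians of both lists were 0.24 and 0.28, against 0.12 over all microRNAs, and the values were 0.30 for miR-9, 0.15 for miR-24, -0.021 for miR-16 and 0.28 for miR-195. Over the global mean of the 6 libraries, miR-9, miR-24, miR-16 and miR-195 lay at 0.42, -0.15, -0.20 and 0.13. The medians of both lists were then 0.079 and 0.24, against -0.039 over all microRNAs.
For miR-124 and miR-137, the microRNAs that the title of the series names, the log2 fold changes over U6 were 1.42 (standard error 0.79) and 0.74 (standard error 0.76), and neither passed (adjusted p = 0.556 and 0.625 from limma). With saline replicate 2 left out they were 0.50 and -0.14, so that of miR-137 changed sign, and over the global mean of all 6 libraries they were 0.77 and 0.089. For both microRNAs the paper also describes separate RT-QPCR of these samples, relative to RNU6B. It states that this supported the profiling. Those measurements were not examined here.
The 4 microRNAs reported as enriched in astrocytes, miR-23a, miR-23b, miR-26a and miR-26b, had 0 calls and a median of 0.31, with 0.36 for miR-26a and 0.96 for miR-26b. Leaving out saline replicate 2 turned the median to -0.13 and miR-26a to -0.040. The global mean as reference turned them to -0.34 and -0.30. Their summed level over U6 ran from -3.84 to -2.39 in saline and from -2.94 to -2.44 in KA-SE mice, so the groups overlapped. Summed levels of the 5 neuronal markers ran from -3.18 to -0.82 in saline and from -0.73 to -0.53 in KA-SE mice, and those of the 2 vessel wall muscle markers, miR-143 and miR-145, from -5.05 to -4.49 and from -4.45 to -4.31. In both lists the summed levels did not overlap, though the ranges of the groups lay close together. Sums were taken on the linear scale, so the earliest marker of each list weighed most. These were miR-9 (mean Ct 15.1, next miR-138 at 16.6) and miR-145 (18.0, with miR-143 at 22.2). Singly, 2 of 5 neuronal and 2 of 2 vessel wall muscle markers had all 3 KA-SE levels over U6 above the highest saline level. So did 2 of 4 markers of leukocytes and microglia, 6 of 17 repressors of BH3-only genes and 3 of 9 microRNAs listed as promoting apoptosis. None of the astrocyte, oligodendrocyte, endothelial, erythrocyte, or choroid plexus and ependyma microRNAs did. The share over all microRNAs tested was 19.2%. Relative to the global mean, the groups overlapped for miR-143 and miR-145, at 0.37 and -0.31. Among neuronal markers they did not overlap for miR-124, at 0.77, and did for miR-128a, miR-137 and miR-138. The log2 fold change of miR-9 was 0.42 on that scale. There, 12.8% of all microRNAs tested were higher in every KA-SE than in every saline mouse, and 12.1% were lower. The neuronal list had 0 calls. Its median was 1.04 over U6, 0.30 without saline replicate 2 and 0.38 over the global mean. Of the marker lists of oligodendrocytes, endothelium, vessel wall muscle, leukocytes and microglia, erythrocytes, and choroid plexus and ependyma, 0 members were called, and the medians over U6 were 1.44, 0.60, 0.69, 0.76, 0.70 and 0.21. In the fit that left out saline replicate 2 they were 0.26, -0.053, 0.22, 0.23, 0.0052 and 0.043. Of the erythrocyte markers, miR-486 was not below Ct 35 in every library and was not tested. The part of cell composition in the miR-29 values was not tested.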

How the data were processed

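Total RNA of the right dentate gyrus, 800 ng per mouse, was copied into cDNA with Megaplex primers and measured on 1 TaqMan microRNA card each. The authors deposited raw Ct (in cycles, 40 for no amplification), a table of Ct relative to a reference that the methods name as RNU6B, and a linear fold change table of their own comparison, which was not used. Neither instrument settings nor a genome build is given in the sources used here. Column names identified the samples, and groups came from the sample titles.

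Levels were the Ct of MammU6 minus the Ct of the microRNA, since the card has no RNU6B assay. The 281 microRNAs below Ct 35 in all 6 libraries were fitted together with limma 3.58.1 (R 4.3.3), without a block and with Benjamini-Hochberg adjustment over all of them. Differences within a library were tested with exact permutation tests in Python 3.11.15. The fit was run on simulated data with the same spread in both groups and no shift shared by a library. The data differ in both respects, so that run does not show how the fit behaves on them. No read depth applies to Ct, and precision depends on the 3 mice per group. Named microRNAs were the members, the controls, the 5 most alike in pattern, miR-124 and miR-137, and the 2 earliest tested members of each list. The members and lists were chosen with earlier results of these data known. Alternatives covered other references, the authors' normalized table, detection limits, tests, a replicate block and leaving out libraries. The one combining the authors' table with the loss of saline replicate 2 was added after seeing the data.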

Additional observations from a re-analysis of the deposited data

How the results depend on the processing

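Under the alternatives tried, no member was called. For miR-29a log2 fold changes lay between -0.19 and 1.10, for miR-29b between 0.08 and 3.08, and for miR-29c between -0.023 and 1.57, with adjusted p from 0.295 to 0.963 over the 3. miR-29a turned negative relative to the global mean (-0.060) and to the median of tested microRNAs (-0.13), without saline replicate 2 (-0.0865), and without it relative to the global mean (-0.19), where miR-29c was -0.023. With 1 library left out, miR-29a ran from -0.0865 to 1.10, miR-29b from 0.38 to 3.08 and miR-29c from 0.08 to 1.57. The lowest came without saline replicate 2, and the highest without saline replicate 1 for miR-29b (3.08) and without saline replicate 3 for miR-29a (1.10) and miR-29c (1.57). The count of called microRNAs was 0 under the alternatives run except with no detection limit, where it was 1, mmu-miR-296-3p. The order of readouts held in direction throughout: with 1 library left out, miR-29b came 5.85 to 6.59 cycles after miR-29a, miR-29c came 3.50 to 3.70 cycles after miR-29a, and miR-29b came 2.35 to 2.91 cycles after miR-29c, each at p = 0.0625 (exact sign-flip permutation test), the smallest that 5 libraries allow. Group differences in these intervals also kept their direction. With the replicate number as a block the log2 fold changes were 0.60, 1.94 and 1.01 for miR-29a, miR-29b and miR-29c, and the count of called microRNAs stayed at 0. The unadjusted p of miR-29b was 0.0154 and its adjusted p 0.304 in limma. That fit gave all 3 members the same standard error of 0.80, where the main fit gave miR-29b 1.25. Without saline replicate 1 and without a block, miR-29b had an unadjusted p of 0.0193 and an adjusted p of 0.411 in limma. The labels do not say that numbers pair the mice: deviations of same-numbered libraries correlated at 0.19, 0.24 and 0.05 across microRNAs, and every library correlated best with its own number.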

Other observations

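In the authors' deposited normalized table, the offset between raw and normalized Ct of the miR-29 members was not the same in every library. In saline replicates 1 and 3 all 3 members lay within 0.006 cycles of the offset most common in that library. In saline replicate 2 and the 3 KA-SE libraries the offset exceeded the most common one by 0.372 to 0.451 cycles for miR-29a and by 0.474 to 0.479 cycles for miR-29c, and was 0.177 to 0.229 cycles below it for miR-29b. Without saline replicate 2, that table gave log2 fold changes of 0.21 for miR-29a, 0.08 for miR-29b and 0.44 for miR-29c, where raw Ct over U6 gave -0.09, 0.38 and 0.08 (adjusted p in limma from 0.375 to 0.960 for the table). The order of the 3 members by fold change differed between the tables without that library. With all 6 libraries it was the same, with 1.76 for miR-29b, 1.25 for miR-29c and 0.79 for miR-29a in the authors' table and 1.94, 1.01 and 0.60 in raw Ct over U6.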
